A study of Mus musculus with 6 samples.

Results

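Productive heavy-chain joins whose CDR3 carries a cysteine were described in 6 VDJ-seq libraries of splenic B cell DNA. VDJ-seq captures rearranged immunoglobulin heavy-chain (Igh) genes in genomic DNA and sequences across each junction, and a productive join is one that the deposited files mark as in frame and able to encode a protein. The mice were C57BL/6, an inbred strain, aged 12 weeks, and all 6 libraries share this background with no genetic change or treatment named. B cells had been enriched with magnetic columns by removing other cells. The starting DNA was 500 ng in the smallest of 4 input libraries, then 1 µg and 2.5 µg, and 5 µg in the largest; a further pair, named Q5_Q5 and Q5_vent, differed by DNA polymerases. Every group had a single library, and no label says whether the libraries came from separate mice, so p-values measure the spread between these libraries, which may be technical. DNA reads of joins carry no markers of other cell types, so the enrichment could not be checked.

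The CDR3 is the loop that spans the join of V, D and J and makes much of the contact with antigen. It begins after a conserved cysteine that nearly every V gene encodes and that pairs with another in the body of the domain. Between the segments, terminal transferase adds N bases that no gene encodes. A further cysteine inside the CDR3 is uncommon in mouse antibodies. A pair of such cysteines can form a disulfide bond across the loop, and a single one is left without a partner inside it.

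The members were chosen by their own CDR3 letters, so the cysteine content itself is a description here and not a test. The rule took productive sequences with at least 1 cysteine in the deposited CDR3, on the premise that this CDR3 leaves out the conserved cysteine. The premise held for 166817 of 167455 productive sequences (99.6%), in which the codon just before the CDR3 was TGT or TGC. It did not hold for 208 of the 3026 sequences that the rule took as written. In 203 of these the deposited CDR3 started early. Of 205 early starts in all, 200 began with the same 9 residues, of which the last is the conserved cysteine. By V gene, 133 were called as a single IGHV1 gene with 138 productive sequences, 30 were called IGHV1-64 and 26 IGHV1-4. These early starts averaged 7.72 V mismatches, against 0.0855 in the members. The 208 were set aside, which left 2818 members of 228609 sequences in all. Of the members, 2782 had 1 cysteine and 36 had 2, the highest number found, and 163999 productive sequences with the same start had none.

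The CDR3s below were found in the most libraries among the members, or, for a pair of cysteines, stand for the kinds of spacing. They are printed from the first base after the conserved cysteine, 5′ to 3′ on the coding strand, with the cysteine codons in capitals. The last line is an early start, in which the capitals mark the conserved cysteine. All come from the heavy-chain locus on mouse chromosome 12.
IGHV1-9 with IGHD2-1 and IGHJ4: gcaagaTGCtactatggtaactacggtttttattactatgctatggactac
IGHV12-3 with IGHD2-3 and IGHJ1: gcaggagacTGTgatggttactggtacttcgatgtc
IGHV1-5 with IGHD4-1 and IGHJ1: acaagaTGCtgggactggtacttcgatgtc
IGHV6-3 with IGHD1-1 and IGHJ4: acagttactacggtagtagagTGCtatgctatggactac
IGHV1-66 with IGHD2-3 and IGHJ4: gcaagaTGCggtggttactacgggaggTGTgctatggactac
IGHV1-69 with IGHD1-1 and IGHJ3: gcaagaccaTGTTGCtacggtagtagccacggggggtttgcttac
IGHV1-64 with IGHD2-2 and IGHJ4: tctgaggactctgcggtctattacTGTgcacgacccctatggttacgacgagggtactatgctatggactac

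The IGHV1-9 join, with its cysteine as residue 3, was the most recurrent member. It had 7 sequences in 3 libraries, of which 2 were in the 2.5 µg library, 4 in the 5 µg library and 1 in Q5_vent. The IGHV12-3 join had 6 sequences, with 2 at 500 ng, 1 at 2.5 µg and 3 at 5 µg. The IGHV1-66 join, with a cysteine on either side of its D segment, had 2 sequences at 5 µg and 1 in Q5_Q5. Of the members, 2733 belonged to clones seen once. Grouped into clones by V gene, CDR3 bases and J gene, the members formed 2770, of which 22 were in at least 2 libraries (0.794%, Wilson 95% interval 0.525% to 1.1997%). Among productive clones without a cysteine 0.736% recurred (interval 0.695% to 0.779%), within the members' interval. No clone had the same molecular identifier in 2 libraries.

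Cysteine-carrying CDR3s were a small share of productive joins in every library. They made up 1.70% of the 500 ng library (107 of 6304, Wilson 95% interval 1.41% to 2.05%). With 1 µg of DNA the share was 1.70% (211 of 12402), with 2.5 µg it was 1.70% (696 of 40925) and with 5 µg 1.68% (1378 of 81987, interval 1.60% to 1.77%). In the polymerase pair the share was 1.75% in Q5_Q5 (194 of 11091) and 1.64% in Q5_vent (232 of 14108). The 6 libraries averaged 1.70% ± 0.034 (SD, n = 6). The 5 µg share minus the 500 ng share was -0.017 points (95% interval -0.347 to 0.314), and Q5_Q5 minus Q5_vent was 0.105 points (-0.217 to 0.427). Neither difference was detectable at this depth, and intervals cover counting error only.

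The cysteines stood mostly at one place, just after the residues that the V gene encodes. Of the 2853 cysteines in the members, 1440 (50.5%) were residue 3 of the CDR3, with a lowest share of 48.1%, a median of 49.9% and a highest of 56.5% over the libraries. Residue 4 held 263 and residue 2 held 128, while residue 5 held 66. In 90.8% of the cysteines at residue 3 the residue before was arginine, with which many V genes end, as in the IGHV1-9 and IGHV1-5 joins above. The residue after them was tyrosine in 20.1%, glycine in 16.5%, aspartate in 12.5% and proline in 12.0%. A second, lower rise lay near the J segment, where 296 cysteines were the fifth residue from the CDR3 end and 262 the fourth, and the IGHV6-3 join is an example.

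**Figure D1:**
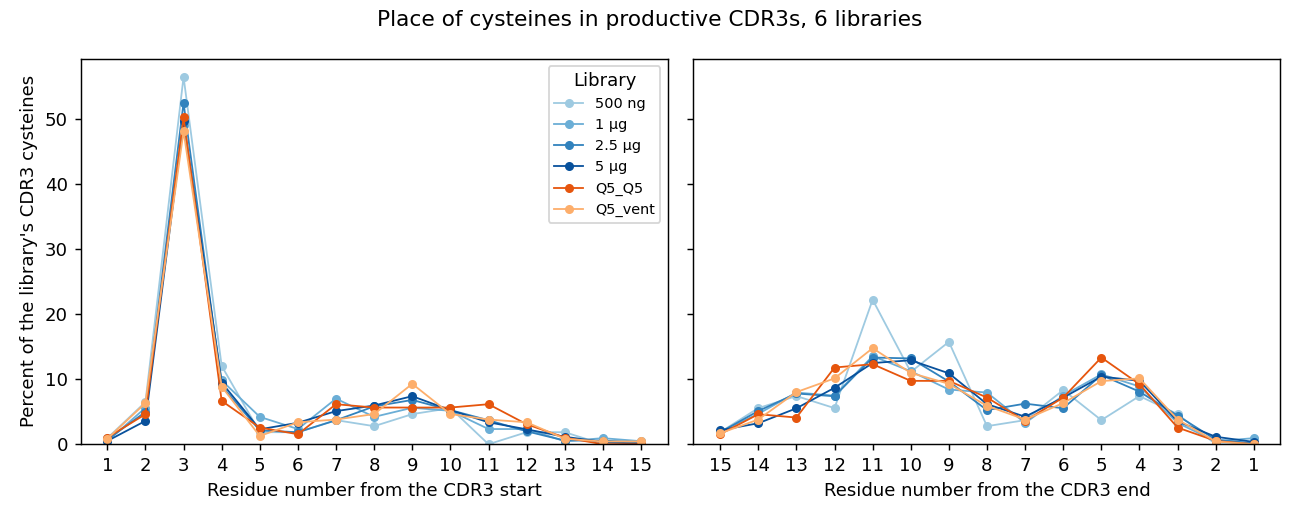
Percent of each library's CDR3 cysteines (y axis) by residue number counted from the CDR3 start (left) or back from its end (right), a line per library. In every library the peak was at residue 3 from the start, between 48.1% and 56.5%.

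Most cysteine codons held inserted bases. Wholly in N bases on the V-D side were 947 (33.2%), and a further 770 (26.99%) joined N bases on that side to the first bases of the D segment. Of these 770, 678 took the first 2 bases from N addition and the third from D. On the D-J side 364 joined N bases to J, 171 joined D to N bases, 142 lay wholly in N bases and 132 held both D and J bases. The V-D side thus held 60.2% of the cysteines and the D-J side 28.4%. A further 48 codons joined V bases to another segment and 126 were in joins with no D call, and neither group was counted on a side. Only 42 lay wholly in a D segment and 3 wholly in V. All 108 that lay wholly in J were in sequences with at least 1 mismatch to the called J gene. Both codons were used, TGC for 1524 cysteines (53.4%) and TGT for 1329 (46.6%). TGC was the more frequent of the pair among codons wholly in V-D side N bases (608 against 339) and TGT among those of 2 N bases and a D base (392 against 286).

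D segments rarely supply a cysteine codon themselves. Germline letters could be read from the aligned D bases for 18 of 22 D genes, as the most frequent base at each place. TGT or TGC, searched on the coding strand in any frame, was in 2 of the 18, IGHD3-3 and IGHD6-1. They are shown with IGHD1-1, the most used D gene, and IGHD3-1, with capitals for the cysteine codon letters.
IGHD1-1: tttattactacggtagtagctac
IGHD3-1: ggcacagctcgggctac
IGHD3-3: gggacagctagggcTGT
IGHD6-1: aggcagctagcctcTGCagTGCcacaacc
In the RefSeq annotation of GRCm38.p6, the assembly of the mm10 build, Ighd1-1 lies at chr12:113482170-113482192, Ighd3-1 at chr12:113525313-113525329 and Ighd6-1, listed there as a pseudogene, at chr12:113480143-113480171.

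No D family passed the test. Shares of the members were set against shares of the productive sequences without a cysteine inside each library, with an exact two-sided sign-flip permutation test over the 6 differences and Benjamini-Hochberg adjustment over 7 classes. The smallest p this test can give with 6 libraries is 0.03125. After adjustment over the D, J or V classes, a class can pass only if most of its set reach that p together. A count of 0 passed therefore does not show that shares are alike. The D call is read from the same bases as the rule, which holds for every comparison of D, J and N bases below. The CDR3 also starts with the last bases of V, so comparisons of V are tied to the rule in part. Of the 7 classes 0 passed (0% called), with 2 at an unadjusted p under 0.05 (28.6%). The IGHD3 family had a lowest share of 2.80%, a median of 3.73% and a highest of 5.03% among the members, against 6.23%, 6.39% and 6.85% without a cysteine. The groups did not overlap, as in 14.3% of the classes, and the mean difference was -2.65 points ± 0.93 (SD, n = 6; exact p = 0.03125, adjusted p = 0.109). With D alignments of at least 8 bases, or no D call, it was -1.17 points.

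The IGHD1 family, the DFL16 genes, had shares of 37.9%, 43.7% and 49.6% (lowest, median, highest) with a cysteine and 39.8%, 39.9% and 40.7% without, a mean difference of 4.13 points ± 3.85 (higher in 5 of 6, adjusted p = 0.109 by the exact permutation test). IGHD4, the single J-proximal D gene DQ52, differed by -1.38 points ± 1.21 (lower in 5 of 6, adjusted p = 0.109, exact). IGHD2, the DSP2 genes, differed by 1.26 points ± 3.31 and split evenly, with 3 libraries higher and 3 lower. The rare IGHD5 family differed by -0.292 points in the mean (lower in 6 of 6), on 6 member sequences. Joins with no D call differed by -1.55 points ± 1.68. With the sequences without a cysteine weighted to the members' CDR3 lengths, the difference was 2.46 points for IGHD1, -0.848 for IGHD4 and -0.345 for joins with no D call. With single D gene calls, or no D call, these were 6.46, -2.42 and -2.60 points.

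IGHD6 had the highest share of cysteine-carrying sequences, 37 of 940 (3.94%), against 1.85% for IGHD1 and 1.01% for IGHD3. Its share differed by 0.483 points ± 0.85 (higher in 4 of 6, adjusted p = 0.255 by the exact permutation test). The calls rest on short matches, with a median of 5 aligned bases and 3.19% of at least 8. With alignments of at least 8 bases the difference was 0.00082 points, and with so few left it must lie near 0. Of the 42 cysteines wholly in D, 15 were in IGHD6 and 22 in IGHD1. The germline letters read for IGHD1-1, IGHD1-2 and IGHD1-3 hold neither codon in any frame, so these 22 depart from them. IGHD3-3, whose germline letters hold TGT, carried a cysteine in 26 of 2679 sequences (0.971%), against 1.69% of all productive sequences with the same start. Its share differed by -0.615 points ± 0.82 (lower in 5 of 6, adjusted p = 0.333 by the exact permutation test).

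Among 16 D genes with at least 500 productive sequences, 0 passed (0% called), and 3 were lower in all 6 libraries (18.8%). These were IGHD3-1, at 0.2999% of members and 1.04% of the others in the mean, IGHD3-2, at 2.55% and 3.84%, and IGHD2-14, at 0.247% and 0.508%. The other 13 genes overlapped between the groups. A second test, limma voom over the same counts with the library as a block, was added after seeing the data. It shares an estimate of spread between classes, which are few for families and J genes, and whose shares are tied. It called 5 of 7 family classes (71.4%), 2 higher (28.6%) and 3 lower (42.9%), with IGHD1 at a log2 ratio of 0.13 (adjusted p = 0.0382) and IGHD6 at 1.06 (adjusted p = 0.0164), and with IGHD3 at -0.73 (adjusted p = 0.00149), IGHD4 at -0.30 (adjusted p = 0.0422) and no D call at -0.47 (adjusted p = 0.0427). Over the 16 genes and the class with no D call it called 2 of 17 (11.8%), 1 in each direction (5.88% each), IGHD6-1 at 1.26 (adjusted p = 0.0184) and IGHD3-1 at -1.11 (adjusted p = 0.0276). With D alignments of at least 8 bases IGHD6-1 differed by 0.0073 points and IGHD3-1 by 0.030 points. Only 3.19% of IGHD6 calls are that long, so the IGHD6-1 difference must then lie near 0. Whether the ratios of the 2 genes hold among longer alignments was not tested.

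The reading frame of the D segment also differed in level, given here with no test. IGHD1-1 was read in its tyrosine-rich frame in 78.8% of members, against 70.9% of sequences without a cysteine, in the mean over libraries. That frame was more frequent in all 6 libraries, from 72.0% to 82.7% with a cysteine and from 70.3% to 71.6% without. For IGHD2-3 the frame rich in tyrosine and glycine was read in 91.9% and 83.3%, and for IGHD2-4 the tyrosine and aspartate frame in 94.9% and 88.5%, each more frequent in 5 of 6 libraries. IGHD4-1, whose germline letters could not be read in full, had the largest difference of the 5 genes examined. One of its frames was read in 59.5% and 39.8%, more frequent in 6 of 6 libraries with no overlap. IGHD3-2 showed no steady difference, and its most used frame, at 54.004% and 46.9%, was more frequent in 3 of 6 libraries.

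Among J genes, IGHJ3 was the least frequent in cysteine-carrying joins. IGHJ3, at chr12:113429085-113429132, made up 14.95% of members in the 500 ng library, 15.2% in the 1 µg library, 16.7% in the 2.5 µg library and 15.8% in the 5 µg library, with 17.5% in Q5_Q5 and 15.1% in Q5_vent. Without a cysteine the shares in the same order were 21.5%, 22.5%, 23.3%, 23.8%, 22.6% and 21.6%. Every member share lay below every other share. The mean difference was -6.68 points ± 0.97 (SD, n = 6), with an exact two-sided sign-flip permutation p of 0.03125 and an adjusted p of 0.125 over 4 J genes. Of the 4, 0 passed (0% called) and 1 had groups that did not overlap (25% of them). With 4 genes, even a gene at the smallest p fails unless most of the others reach it too. The limma voom fit called 2 of 4 (50%), IGHJ3 at a log2 ratio of -0.50 (adjusted p = 6.56e-08) and IGHJ4 at 0.20 (adjusted p = 0.00332). Its intervals for all 4 J genes had the same width. Its p thus reflects a shared spread and not the spread of IGHJ3 alone over the 6 libraries.

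IGHJ4 had shares of 29.0%, 33.1% and 37.4% (lowest, median, highest) with a cysteine and 27.99%, 28.6% and 29.3% without, a difference of 4.25 points ± 2.68 (higher in 5 of 6, adjusted p = 0.125 by the exact permutation test). IGHJ1 differed by 1.18 points ± 2.72 and IGHJ2 by 1.26 points ± 2.71, and both overlapped. Without the 500 ng library IGHJ1 differed by 0.224 points. IGHJ2 differed by 2.24 points without the 1 µg library and by 0.665 points without the 5 µg library. Counted the other way, 1.17% of IGHJ3 joins carried a cysteine, against 1.69% of IGHJ1, 1.85% of IGHJ2 and 1.95% of IGHJ4 joins. On the V-D side, away from J, IGHJ3 was the lowest. There were 0.744 cysteines per 100 IGHJ3 joins, against 1.16 for IGHJ1, 1.02 for IGHJ2 and 1.18 for IGHJ4. On the D-J side there were 0.360 for IGHJ3, against 0.316 for IGHJ1, 0.708 for IGHJ2 and 0.479 for IGHJ4, so there IGHJ1 was the lowest and IGHJ3 the next.

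**Figure D2:**
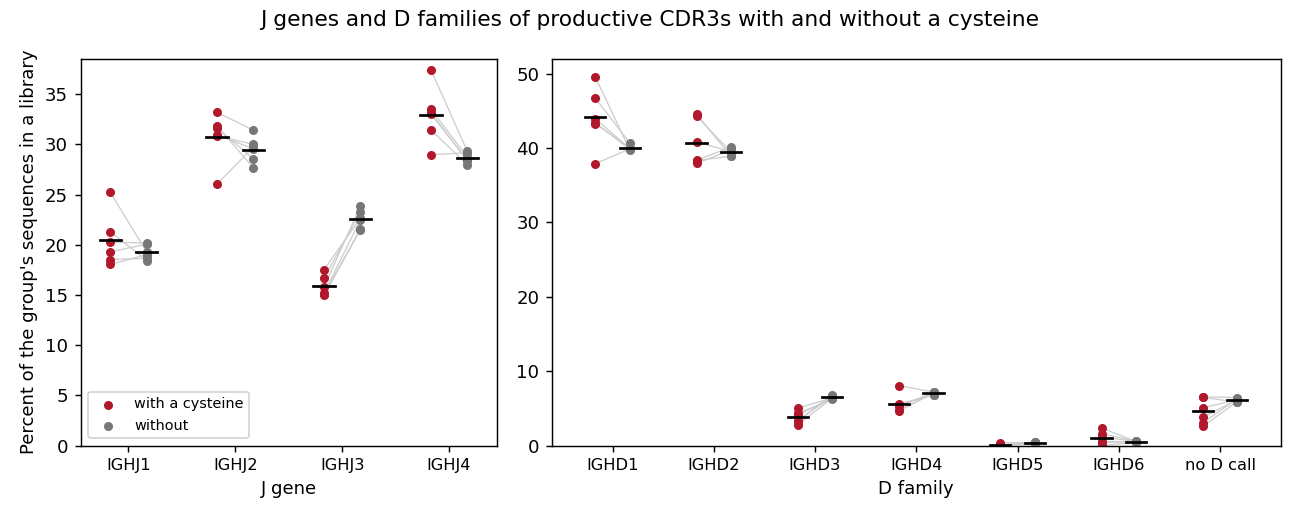
Percent of sequences in each J gene (left) and D family (right), for members (red, left of each pair) and productive sequences without a cysteine (grey), a point per library, lines joining a library and black bars for the means. The IGHJ3 groups did not overlap, with means of 15.9% and 22.6%.

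Where a cysteine stood on the D-J side, its place followed the J gene. With IGHJ2, 161 of 338 were the fourth residue from the CDR3 end. With IGHJ1, 56 of 104 were the sixth from the end, and with IGHJ4, 88 of 228 were the fifth and 74 the sixth. With IGHJ3 no single place held more than 39 of 139. The residue after these cysteines was tyrosine in 24.2%, phenylalanine in 23.4% and alanine in 14.7%.

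The IGHV1 family, the large J558 group of V genes, was more frequent among cysteine-carrying joins. Its share had a lowest value of 67.7%, a median of 70.6% and a highest of 72.2% with a cysteine, against 61.3%, 61.8% and 62.6% without. The groups did not overlap, and the mean difference was 8.55 points ± 1.93 (higher in 6 of 6, exact permutation p = 0.03125, adjusted p = 0.0781 over 15 families). It was the 1 family higher in all 6 libraries (6.67% of the families). Lower in all 6 were 5 families (33.3%), IGHV5 by -3.80 points ± 1.56, IGHV8 by -2.30 ± 1.34, IGHV2 by -1.41 ± 0.62, IGHV10 by -1.21 ± 0.60 and IGHV6 by -1.03 ± 0.65, each with an adjusted p of 0.0781 by the same exact test. The groups did not overlap in 4 families (26.7%), IGHV1, IGHV5, IGHV6 and IGHV8. With the CDR3 lengths of the groups made equal by weighting, IGHV6 differed by -0.645 points. No family passed (0 of 15, with 6 at an unadjusted p under 0.05, 40% of them), and the exact test had little room to pass here as well. The rule also reads the V bases at the CDR3 start, so comparisons of V families and V genes are not free of the choice of members.

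The limma voom fit called 6 of 15 families (40%), IGHV1 at a log2 ratio of 0.21 (adjusted p = 0.000178), IGHV5 at -0.87 (adjusted p = 0.00778), IGHV10 at -0.75 (adjusted p = 0.00947), IGHV8 at -0.72 (adjusted p = 0.0452), IGHV2 at -0.64 (adjusted p = 0.00778) and IGHV3 at -0.56 (adjusted p = 0.0116). IGHV3 differed by -1.52 points ± 1.59. Of the others, IGHV9 differed by 1.30 points, IGHV14 by 1.22, IGHV7 by 0.432, IGHV12 by 0.155 (0.058 with 1 count per clone) and IGHV4 by 0.049. IGHV13 differed by -0.212, IGHV11 by -0.133 and IGHV15 by -0.091 points. None of these 8 was called by either test.

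**Figure D3:**
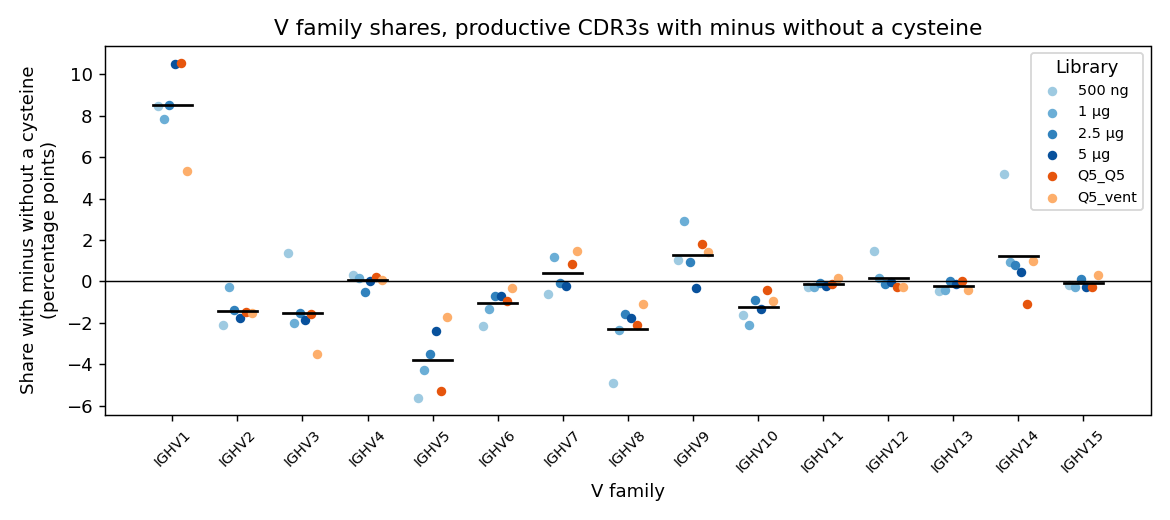
Share of each V family among members minus its share among productive sequences without a cysteine, in percentage points, a point per library and a black bar for the mean. IGHV1 averaged 8.55 points above 0, and IGHV5, IGHV8, IGHV2, IGHV10 and IGHV6 lay below 0 in all 6 libraries.

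The levels of the families by place are given with no test. At residue 3 there were 1.10 cysteines per 100 IGHV1 joins, 1.09 per 100 IGHV9 joins, 1.07 per 100 IGHV7 joins and 0.946 per 100 IGHV14 joins. IGHV5 had 0.187, IGHV8 0.174, IGHV10 0.219 and IGHV2 0.256. Within N bases on the V-D side, with or without D bases, there were 1.27 per 100 IGHV1 joins, 1.27 for IGHV9, 1.35 for IGHV14, 0.293 for IGHV5 and 0.267 for IGHV7. IGHV7 thus differed from IGHV1 there, with 6 such cysteines against 24 at residue 3. Codons that join V bases to another segment, or that lie in joins with no D call, are not in these V-D side counts. On the D-J side, away from V, there were 0.525 per 100 IGHV1 joins, 0.506 for IGHV5, 0.453 for IGHV8, 0.416 for IGHV10 and 0.316 for IGHV2.

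No single V gene passed the test. Of 67 V genes with at least 500 productive sequences, limma voom with the library as a block called 0 (0%, smallest adjusted p = 0.0987), with 19 at an unadjusted p under 0.05 (28.4%), 11 higher and 8 lower. The exact sign-flip permutation test had 12 at an unadjusted p under 0.05, and its smallest p of 0.03125 leaves it little room to pass the adjustment over 67 genes. The most used gene, Ighv1-26 (chr12:114788372-114788665), was 5.96% of members and 5.95% of the others, a log2 ratio of 0.00 (95% interval -0.27 to 0.27). Ighv3-6 (chr12:114288152-114288447) was 1.70% and 3.53% (lower in 6 of 6, log2 ratio -1.01, limma adjusted p = 0.0987). Ighv8-8 (chr12:115294066-115294362) was 1.37% and 2.86% (lower in 6 of 6, log2 ratio -1.28, limma adjusted p = 0.116). Ighv1-64 (chr12:115507587-115507977) was 3.77% and 3.29%, and Ighv1-50 (chr12:115119748-115120041) was 3.38% and 3.09%, each higher in 5 of 6. Their log2 ratios were -0.02 (limma adjusted p = 0.978) and 0.25 (limma adjusted p = 0.368), so for Ighv1-64 the mean share and the fitted ratio differed in sign.

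Members held more N bases on both sides of D. In sequences with a D call, N bases on both sides together had a lowest mean of 8.03, a median of 8.09 and a highest of 8.28 over the libraries with a cysteine, against 7.44, 7.47 and 7.50 without. The groups did not overlap. N bases on both sides together rose by 0.662 ± 0.100 (SD, n = 6; higher in 6 of 6, exact two-sided sign-flip permutation p = 0.03125, adjusted p = 0.03125 over 3 lengths). The V-D side held 4.72 and 4.28 bases in the mean, a difference of 0.439 ± 0.114, and the D-J side 3.40 and 3.18, a difference of 0.223 ± 0.092, each with an adjusted p of 0.03125 by the exact test. All 3 lengths passed (100%), of which the length on both sides is the sum of the other 2. With single V gene calls the D-J side difference was 0.196 bases (adjusted p = 0.0938, exact) and did not pass. Only 169 of the 2853 cysteine codons held no inserted base, so the rule and the lengths are tied. These tests therefore cannot separate a difference in N addition from the choice of the members. Sequences with no N base on the V-D side were 2.17% of members and 8.92% of the others.

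The CDR3 of the members averaged 38.7 bases, against 37.9 without a cysteine, a difference of 0.865 bases ± 0.454 (higher in 6 of 6), given without a test because a longer CDR3 has more codons. When the sequences without a cysteine were weighted to the members' CDR3 lengths in each library, the difference in N bases on both sides was 0.440 bases (adjusted p = 0.03125, exact). The weighting does not undo the tie between the rule and the N bases. Of CDR3s of 1 to 8 codons 0.794% carried a cysteine (12 of 1512), of 9 to 11 codons 1.45%, of 12 to 14 codons 1.82%, of 15 to 17 codons 1.81% and of 18 to 30 codons 2.06%. Per 1000 codons there were 1.05, 1.42, 1.42, 1.17 and 1.13 cysteines in the same order, so the shortest and the longest CDR3s had the fewest per codon.

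**Figure D4:**
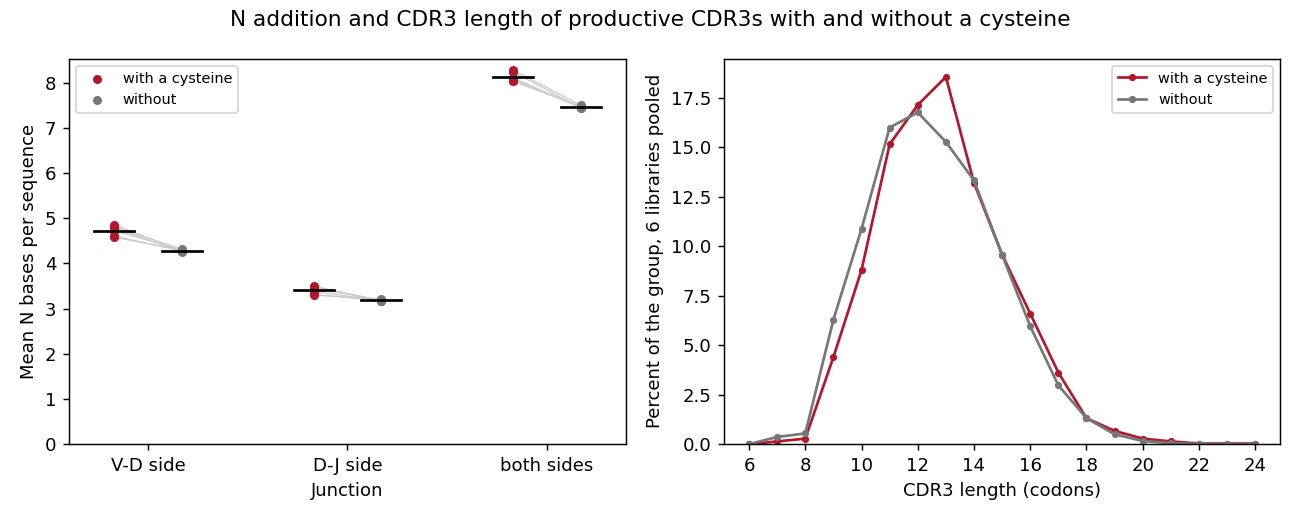
Left, mean N bases per sequence with a D call, members (red) and productive sequences without a cysteine (grey), a point per library and black bars for the means; right, CDR3 length in codons as percent of each group, 6 libraries pooled. Members held 8.13 N bases on both sides in the mean, and the others 7.47.

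Mismatches and read support were compared in the same way. Sequences with at least 1 V mismatch were 5.25% of members and 5.86% of the others in the mean, a difference of -0.611 points ± 0.870 (lower in 4 of 6, exact permutation p = 0.188). Reads per sequence, taken from the sequence names, averaged 10.9 in both groups (difference 0.0043 ± 0.364, exact permutation p = 1). A p that misses the threshold does not show that the groups are alike. Sequences with at least 1 mismatch to the called J gene were 5.46% of members and 1.81% of the others, a difference of 3.64 points ± 1.46 (higher in 6 of 6, no overlap). This is given without a test, since the J segment includes CDR3 bases that the rule reads, and the 108 cysteines wholly in J all lie in such sequences.

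The 36 sequences with a pair of cysteines were 34 distinct CDR3s. In 23 the first cysteine was residue 3, and in 25 a cysteine stood on each side of D, as in the IGHV1-66 join above. The cysteines were adjacent in 8, as in the IGHV1-69 join, and the median number of residues between them was 4, with a highest of 9. IGHV1 family genes were called in 30 (83.3%), against 70.8% of sequences with 1 cysteine, given without a test. IGHJ4 was called in 20 of the 36 (55.6%), against 32.6% of sequences with 1 cysteine. The within-library difference for IGHJ4 averaged 34.4 points ± 27.9 (higher in 6 of 6, exact permutation p = 0.03125, adjusted p = 0.125), and the 500 ng and Q5_Q5 libraries held 1 such sequence each. N bases on both sides averaged 11.03 with a pair and 8.10 with 1 cysteine over 5 libraries (difference 2.93 ± 1.49, exact permutation p = 0.0625, the smallest that 5 libraries allow). Of the 7 D classes and 4 J genes, none passed. CDR3 length averaged 38.7 bases in both groups over the libraries (difference -0.038 ± 5.63, higher in 5 of 6). Pooled over the libraries it was 40.3 bases for the 36 and 38.6 bases for those with 1 cysteine.

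Joins out of frame encode no protein, so their codons are set beside those of productive joins as a description. Among codons wholly in N bases on the V-D side, read in the V frame with stop codons left out, cysteine was 947 of 156632 in productive joins (0.605%) and 350 of 42127 in out-of-frame joins (0.831%), a ratio of 0.728. The ratio was below 1 in 5 of 6 libraries, between 0.536 and 0.749, and was 1.94 at 500 ng; without that library it was 0.704. Cysteine had the fourth lowest ratio of the 20 amino acids, after histidine (0.395), proline (0.598) and isoleucine (0.708), while serine had the highest (1.48). Over all codons between V and J, cysteine was 0.219% in productive and 0.359% in out-of-frame joins. The ratio was 0.610, below 1 in 6 of 6 libraries. It ranked 6 from the lowest of the 20 amino acids there, with methionine lowest (0.167).

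**Figure D5:**
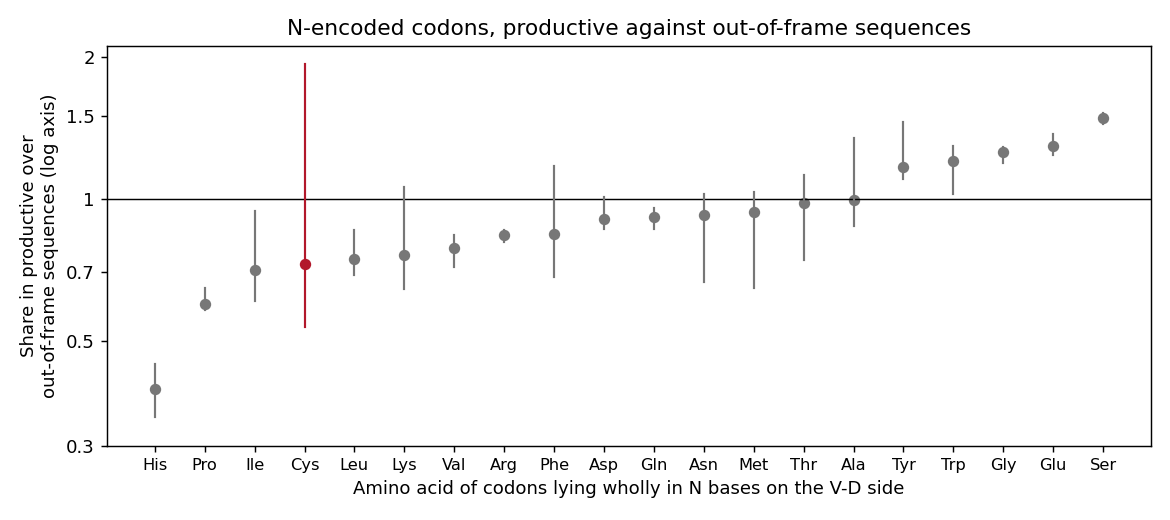
Share of each amino acid among codons wholly in V-D side N bases, productive over out-of-frame joins, on a log axis, with points for the 6 libraries pooled and lines from the lowest to the highest library. Cysteine (red) stood at 0.728, with libraries from 0.536 to 1.94.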

How the data were processed

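The authors deposited 1 row per deduplicated VDJ-seq sequence for each of 6 libraries, with V, D and J calls, a CDR3 and a productive flag; the other columns used are lengths and positions in bases, per the file headers. The mm10 build, Bowtie2 2.3.2 and Trim Galore 0.4.4 are listed, per the submitters' processing notes, and no source used here names the gene caller. Depth was 8704 to 112320 sequences per library; with none seen, a share of productive sequences could still reach 0.0476% in the smallest library and 0.0037% in the largest (3 counts).

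From these rows, members were productive sequences with a cysteine in a CDR3 preceded by TGT or TGC. The first gene of a call was used with alleles merged; 11.7% of productive sequences named several V genes and 40.9% of those with a D call several D genes, so near-identical genes are uncertain. Groups were compared within each library by exact sign-flip permutation tests (64 flips) with Benjamini-Hochberg adjustment at 0.05, and V genes with limma voom, which was tested on simulated counts. Share intervals are 95% Wilson intervals. Members and lists were chosen with earlier results of these data known. Named were all J genes, D and V families, V genes past the threshold and the 5 most used. D genes with at least 500 productive sequences were all compared, and only part of them are named. CDR3s were drawn from those in most libraries. V coordinates came from RefSeq, where all 67 genes tested were found. Tools were R 4.3.3 with limma 3.58.1, and Python 3.11.15 with NumPy 2.4.6, pandas 2.3.3, matplotlib 3.10.9 and SciPy 1.17.1.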

Additional observations from a re-analysis of the deposited data

Results flagged for a closer look

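In each value with 6 libraries, the lowest and the highest library were compared with their neighbours by Dixon's 95% criterion. Chance meets it in about 1 of 20 groups of values with equal precision. Here the members number 107 at 500 ng and 1378 at 5 µg, so the smallest libraries can stand apart more often through counting error. A library stood apart in 6 of 52 values. IGHD3-2 differed, with minus without a cysteine, by -3.15 points at 1 µg, against -1.51 to -0.605 in the other libraries. The IGHV4 family differed by -0.508 points at 2.5 µg, against 0.012 to 0.305 elsewhere. At 500 ng, where the members number 107, the IGHV8 family differed by -4.89 points (elsewhere -2.36 to -1.09), the IGHV12 family by 1.45 points (elsewhere -0.259 to 0.170) and the IGHV14 family by 5.22 points (elsewhere -1.08 to 0.972). In that library IGHV8 had 0 members, and IGHV12 had 2, both of the IGHV12-3 join printed above. The ratio of cysteine among V-D side N codons, productive over out-of-frame, was 1.94 at 500 ng and 0.536 to 0.749 elsewhere.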

How the results depend on the processing

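Of 892 values recomputed under alternatives, 883 were counted as unchanged. A tested value counted so if it stayed on its side of the threshold, and direction was compared only where a test passed. Values without a test counted so if they moved by less than the spread between libraries. Changes of sign that missed the threshold are thus among the 883. An example is IGHD3-1, at -0.743 points, and at 0.030 points with D alignments of at least 8 bases. When 1 library is left out, a mean over the libraries always moves by less than the spread between them. Such means could not count as changed, so their place among the 883 shows nothing about stability. Shares of D, J and V classes also had little room to change under the exact test. With the rule as written, added after seeing the data, the cysteine share was 1.81%, the CDR3 length difference 2.46 bases, the V mismatch difference 4.44 points in the opposite direction (exact permutation p = 0.03125), and 1 V gene was called, IGHV1-4, which holds early starts. With a minimum of 1000 sequences 1 V gene was called, IGHV1-75; both genes were named after their values were seen. The added limma voom fit called 5 D classes, 2 J genes and 6 V families, against 0 each by the exact test. That fit shares its estimate of spread between few classes, and the exact test has little room to pass. With single V gene calls the D-J side N difference was 0.196 bases (adjusted p = 0.0938, exact). Leaving out each library in turn, the cysteine share ranged from 1.68% to 1.71%, the N difference from 0.637 to 0.684 bases, the CDR3 difference from 0.727 to 0.967 bases, the V mismatch difference from -0.828 to -0.415 points, the reads difference from -0.112 to 0.103, the share of cysteines at residue 3 from 49.9% to 51.5% and the N codon ratio from 0.704 to 0.750, with 0 V genes called. Exact tests on 5 libraries cannot pass (smallest p = 0.0625) and were not counted. The 36 sequences with a pair of cysteines, the short IGHD6 alignments and the 107 members at 500 ng limit what depth can show.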
